A study of Mus musculus with 12 samples.

Results

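The 45 genes described here encode the contractile apparatus, calcium handling, energy metabolism and regulators of skeletal muscle. They were chosen by name, as rows of the deposited tables whose gene symbol is one of the 45, out of 31618 genes in each female file and 31669 in each male file. All 45 were found in both sets. In the male set 43 of them, and in the female set 26, were measured. This means that the highest of the 6 libraries reached 20 normalised reads, or that the level could not be read from the file. The level could not be read for 23 of the 43 and 19 of the 26, and these genes are not shown to be far from the floor.

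The study profiled by RNA sequencing the reproductive tracts of WT mice and of mice mutant for Hoxa and Hoxd genes, all on a CD1/129 background and aged 3 to 7 months, with the females in diestrus. Each of the 12 libraries held RNA pooled from 3 animals of 1 genotype. Since every tissue and genotype is a single pooled library, differences below have no replicate check and no test was made. The 6 female libraries were the WT oviduct and the uterus of 5 genotypes. The 6 male libraries were WT epididymis of the caudal segment, which opens into the vas deferens, and the vas deferens of the same 5 genotypes. Besides WT these were Hoxa9,10,11-/- (here Hoxa-null), Hoxd9,10,11-/- (Hoxd-null), Hoxa9,10,11-/-d9,10,11+/- (compound Hoxa-null) and Hoxa9,10,11+/-d9,10,11-/- (compound Hoxd-null). The compound mutants thus carry the homozygous mutation of 1 cluster and the heterozygous mutation of the other.

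Each deposited value is a log2 value relative to the median of that gene over the 6 libraries of its sex, so levels of different genes, or of the 2 sexes, cannot be compared. Where the lowest values of a gene lay on the steps of single reads, its level was recovered and is given below in normalised reads, which are reads times 1 factor per library. A library listed at the floor has 1 normalised read or less. The factor per read ran from 0.892 to 1.20 in the female set and from 0.704 to 1.35 in the male set, a range of 1.34-fold and 1.92-fold in depth, and WT vas deferens was the deepest male library. The WT vas deferens was sequenced in lane 1 of run 134, the Hoxa-null, compound Hoxa-null and Hoxd-null vas deferens in lane 2 of that run, and the compound Hoxd-null vas deferens and the epididymis in run 136. In the female set the WT and Hoxa-null uteri were in lane 1 of run 134, the 3 other uteri in lane 2 and the oviduct in run 136. Of the 10 differences from WT only that of the Hoxa-null uterus thus stays within a lane, and lane or run cannot be told apart from genotype or tissue in the others. Of the mutated genes, Hoxa11 was lower than WT in both Hoxa-null uteri, by log2 differences of -2.74 and -3.11, and in both Hoxa-null vasa, by -2.30 and -3.21. Hoxd11 was lower in both Hoxd-null vasa, by -2.47 and -1.18, and in both Hoxd-null uteri, by -0.60 and -1.58, and the first of these is less than 2-fold. Compound Hoxa-null tissue had less Hoxd11 as well, with differences of -1.35 (uterus) and -1.46 (vas deferens). Hoxa-null tissue, in which Hoxd is not mutated, differed in Hoxd11 by -0.73 (uterus) and -0.89 (vas deferens). Hoxd11 thus did not follow the Hoxd genotype alone. The other mutated genes were not lower throughout, since Hoxa9 stood 0.60 and 0.33 above WT in the 2 Hoxa-null vasa and Hoxd9 and Hoxd10 differed by 0 and 0.57 in the Hoxd-null uterus. The tissue markers followed the labels in part. Crisp4, a secreted protein of the epididymis, was 8.92 log2 units higher in the epididymis than in the WT vas deferens, Akr1b7, an aldo-keto reductase of the vas deferens, differed there by -6.02, and Ovgp1, the oviductal glycoprotein, was 5.14 higher in the oviduct than in the WT uterus. Crisp1, another epididymal secretory protein, was only 0.81 higher in the epididymis, and the epididymal lipocalin Lcn5 differed by -3.22.

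Skeletal muscle fibres contract when myosin heads of the thick filament pull on actin of the thin filament. Calcium, released from the sarcoplasmic reticulum after the membrane is depolarised, frees the actin by binding to the troponin complex, and a calcium pump ends the contraction. Fast fibres carry the fast isoforms of myosin, troponin and the calcium pump and rely largely on glycolysis and creatine phosphate. Slow fibres carry slow isoforms, some of them shared with the heart, and rely on oxidation. The uterus and the vas deferens have walls of smooth muscle, which uses other myosin and actin genes and has no troponin. Striated muscle lies close to the male tract in the cremaster and the pelvic floor. In pooled bulk RNA, fewer cells of a type and less RNA per cell cannot be told apart.

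The promoters of 4 members show the kind of elements that skeletal muscle genes carry and are printed because 2 of the genes, Myh4 and Xirp2, differed most between the Hoxa-null and Hoxd-null vasa, while Acta1 and Tnni1 did not follow them. The windows come from RefSeq on GRCm38.p6, run from 250 bases before to 50 after an annotated start, and are written 5′ to 3′ on the gene's strand. Windows were given for 34 of the 45 members, and where a gene had more than 1 the first was taken for printing. Capitals mark matches on either strand to the E-box CAGCTG, bound by MyoD-type factors, to the MEF2 element (CTA, any 4 bases, TAG), to the CArG box, bound by serum response factor, and to the TATA box TATAAA.
Myh4, chr11:67237562-67237861, plus strand: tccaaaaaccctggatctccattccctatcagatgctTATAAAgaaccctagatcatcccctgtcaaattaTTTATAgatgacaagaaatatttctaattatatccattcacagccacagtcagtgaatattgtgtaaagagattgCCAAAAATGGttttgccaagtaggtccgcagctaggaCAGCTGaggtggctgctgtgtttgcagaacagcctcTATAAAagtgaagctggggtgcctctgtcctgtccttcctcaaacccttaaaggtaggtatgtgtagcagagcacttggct
Xirp2, chr2:67445752-67446051, plus strand: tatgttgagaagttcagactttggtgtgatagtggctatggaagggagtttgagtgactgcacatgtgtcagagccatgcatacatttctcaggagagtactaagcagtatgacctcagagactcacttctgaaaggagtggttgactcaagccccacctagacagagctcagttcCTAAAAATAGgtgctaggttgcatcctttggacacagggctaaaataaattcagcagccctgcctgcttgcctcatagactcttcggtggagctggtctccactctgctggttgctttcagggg
Acta1, chr8:123894726-123895025, minus strand: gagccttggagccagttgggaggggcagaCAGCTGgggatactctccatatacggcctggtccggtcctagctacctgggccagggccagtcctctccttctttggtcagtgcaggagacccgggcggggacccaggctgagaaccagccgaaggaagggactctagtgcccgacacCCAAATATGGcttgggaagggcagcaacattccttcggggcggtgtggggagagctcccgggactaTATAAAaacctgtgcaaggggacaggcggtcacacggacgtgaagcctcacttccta
Tnni1, chr1:135799171-135799470, plus strand: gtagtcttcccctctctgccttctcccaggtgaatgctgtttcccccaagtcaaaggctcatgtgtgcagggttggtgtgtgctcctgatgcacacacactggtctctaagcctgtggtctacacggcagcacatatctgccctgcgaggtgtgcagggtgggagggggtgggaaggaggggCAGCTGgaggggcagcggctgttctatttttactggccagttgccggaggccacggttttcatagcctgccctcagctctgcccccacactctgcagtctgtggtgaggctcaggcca
The window of Myh4 holds an E-box, a CArG box and 3 TATAAA matches, that of Acta1 an E-box, a CArG box and 1 TATAAA, that of Tnni1 an E-box, and that of Xirp2 a MEF2 element. Among the 34 members with a window, 18 (52.9%) hold the E-box CAGCTG, against 18.3% of 27025 genes with a window. The MEF2 element was found for 3 members (8.82%, against 4.23% of all), the CArG box for 4 (11.8%, against 1.81%) and TATAAA for 9 (26.5%, against 15.7%). The CArG box overlaps no other match in the printed windows. The E-box was present in 9 of 20 members whose 2 Hoxa-null vasa both lay at least 2-fold above both Hoxd-null vasa and in 9 of the 14 others. A match is a string of letters in a window, and binding was not measured.

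In the vas deferens most members were highest in the 2 libraries homozygous for the Hoxa mutation, intermediate in WT and lowest in the 2 libraries homozygous for the Hoxd mutation. Both Hoxa-null vasa lay above WT and WT above both Hoxd-null vasa for 28 of 43 measured members, an order that 7.38% of the 16842 measured male genes had. For 27 of 43 members both Hoxa-null vasa lay at least 2-fold above both Hoxd-null vasa, against 4.83% of all measured genes. By role, these were 11 of 14 fast fibre genes, both perinatal and extraocular myosins, 6 of 9 sarcomere genes shared by fibre types, all 3 excitation coupling genes, 4 of 8 metabolic genes, 1 of 2 regulators and 0 of 5 slow fibre genes. Mstn, Ckmt2 and Lmod2 are among the 27 and count as measured only through the Hoxa-null pair, where they are high. The members were chosen with results of these data known, so these counts describe the list and are no independent evidence of its direction.

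**Figure D1:**
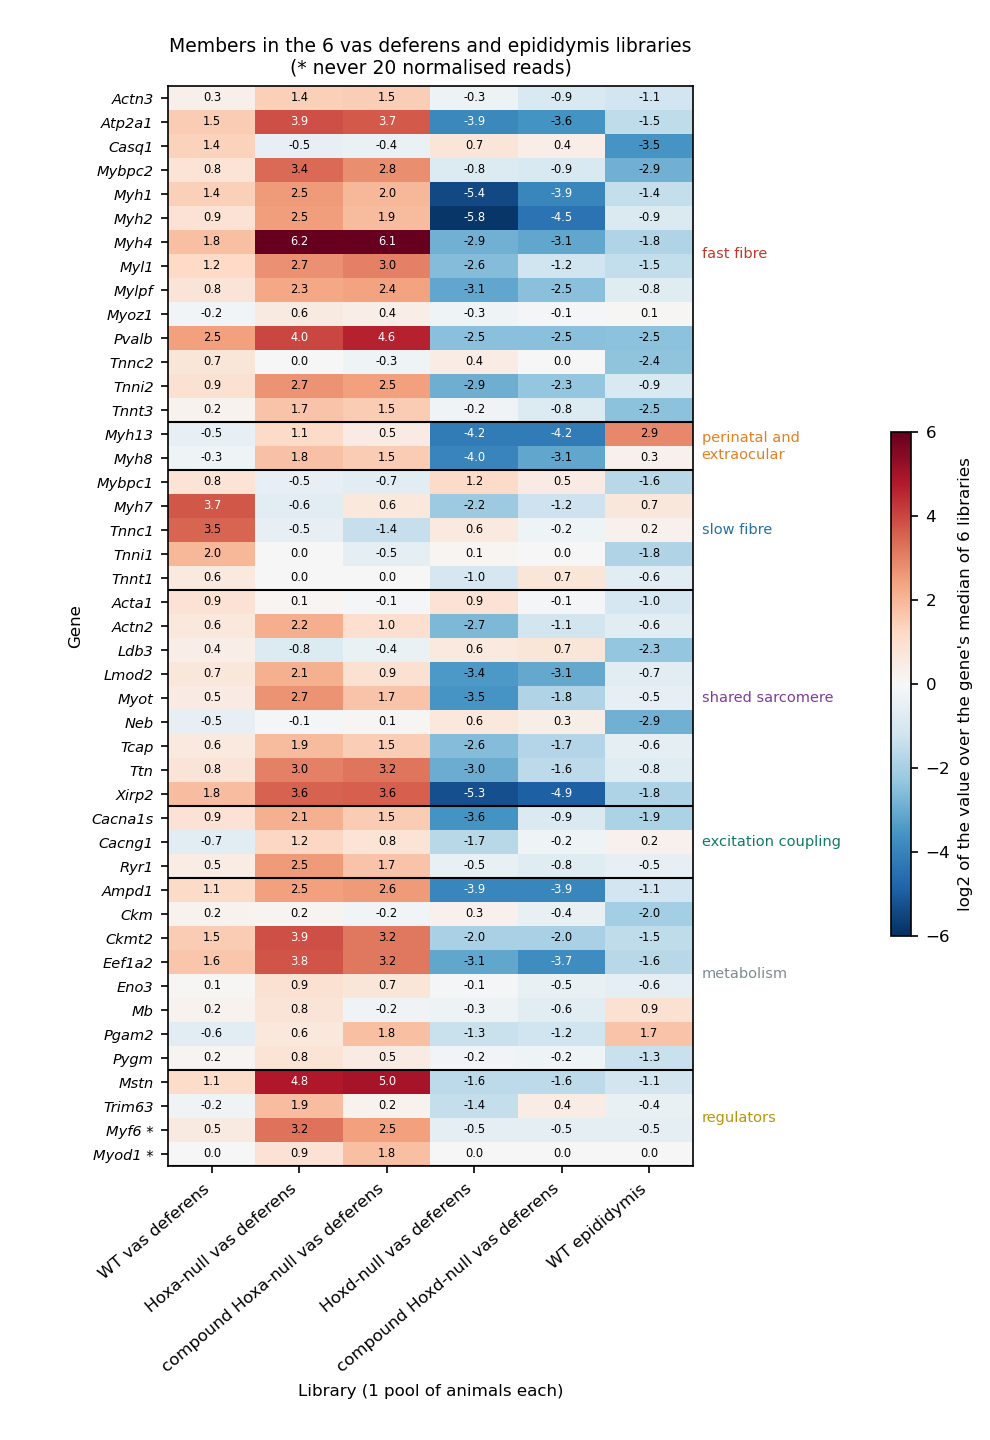
Deposited log2 values of the 45 members in the 6 male libraries, relative to each gene's median, in rows grouped by role. Colour and printed number give the value, red above and blue below the median, and an asterisk marks the 2 members that never reached 20 normalised reads. Most rows outside the slow fibre block are red in the 2 Hoxa-null columns and blue in the 2 Hoxd-null columns.

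Fast myosin heavy chains, the motors of the thick filament, had ranges of 9.31 (Myh4), 8.34 (Myh2) and 7.93 (Myh1) log2 units over the 6 male libraries, and of all members only Xirp2, at 8.85, came among them. Myh4, which encodes the IIB chain of the fastest fibres (chromosome 11, start 67051227 in mm9), had log2 values of 1.79 in WT, 6.17 in Hoxa-null, 6.14 in compound Hoxa-null, -2.89 in Hoxd-null and -3.14 in compound Hoxd-null vas deferens and -1.79 in the epididymis. The Hoxa-null and compound Hoxa-null vasa were thus 4.36 and 4.34 log2 units above WT, and the Hoxd-null and compound Hoxd-null vasa differed from WT by -4.69 and -4.94. Both mutants of a cluster agreed closely and the groups did not overlap. Myh1, the IIX chain, had 1.45 in WT, 2.54 and 2.01 in the Hoxa-null pair (Hoxa-null first), -5.40 and -3.91 in the Hoxd-null pair (Hoxd-null first) and -1.45 in the epididymis. Myh2, the IIA chain of fast oxidative fibres, had 0.87 in WT, 2.52 and 1.91 in the Hoxa-null pair, -5.82 and -4.45 in the Hoxd-null pair and -0.87 in the epididymis. For Myh1 and Myh2 the step down to the Hoxd-null pair was larger than the step up to the Hoxa-null pair, whereas for Myh4 they were of similar size. The myosin genes lie next to each other on chromosome 11 and have near-identical stretches, and the counting is not given in the sources used here, so reads may be divided between them.

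The perinatal chain Myh8 and the extraocular chain Myh13 followed within the vas deferens but not in the epididymis. Myh8 had -0.27 in WT, 1.76 and 1.50 in the Hoxa-null pair, -3.97 and -3.10 in the Hoxd-null pair and 0.27 in the epididymis. Myh13 reached 12.7 normalised reads in WT vas deferens, 39.6 in Hoxa-null and 25.9 in compound Hoxa-null, was at the floor in both Hoxd-null vasa, and was highest in the epididymis at 133. Against a floor of 3 reads, Myh13 was at least 4.34-fold lower in Hoxd-null and at least 3.29-fold lower in compound Hoxd-null than in WT vas deferens. The epididymis thus exceeded every vas deferens library for Myh13, by 3.37 log2 units over WT.

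The light chains Myl1 and Mylpf, the troponin Tnni2 and the binding protein Mybpc2 of the same fibres gave the same order. Myl1, a fast essential light chain, had 445 normalised reads in WT vas deferens, 1290 in Hoxa-null, 1610 in compound Hoxa-null, 32.3 in Hoxd-null, 86.6 in compound Hoxd-null and 70.2 in the epididymis. Mylpf, the fast regulatory light chain, had log2 values of 0.75 in WT, 2.33 and 2.43 in the Hoxa-null pair, -3.12 and -2.51 in the Hoxd-null pair and -0.75 in the epididymis. Tnni2, the fast inhibitory troponin, had 180.2 normalised reads in WT, 628 and 525 in the Hoxa-null pair, 12.7 and 19.4 in the Hoxd-null pair and 51.4 in the epididymis. For these 3 genes the epididymis lay below WT vas deferens and, except for Myl1 in compound Hoxd-null, above both Hoxd-null vasa. Mybpc2, the fast myosin binding protein, had 175 normalised reads in WT, 1039 and 695 in the Hoxa-null pair, 56.2 and 52.3 in the Hoxd-null pair and 13.5 in the epididymis. Tnnt3, the fast tropomyosin-binding troponin, and Actn3, the fast alpha-actinin of the Z disc, were 1.49 and 1.10 log2 units above WT in Hoxa-null and 1.33 and 1.18 above it in compound Hoxa-null, and differed from WT by -0.39 and -0.59 in Hoxd-null and by -1.04 and -1.23 in compound Hoxd-null vas deferens. Of the Hoxd-null pair only the compound library thus lay at least 2-fold below WT for both.

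Proteins that remove calcium from the cytosol of fast fibres were among the most divergent members. Atp2a1, the fast calcium pump SERCA1, had log2 values of 1.52 in WT, 3.85 and 3.69 in the Hoxa-null pair, -3.88 and -3.58 in the Hoxd-null pair and -1.52 in the epididymis. Pvalb, the calcium buffer parvalbumin, had 123 normalised reads in WT vas deferens, 357 in Hoxa-null and 540.2 in compound Hoxa-null against 3.91, 3.88 and 4.05 in Hoxd-null, compound Hoxd-null and epididymis, which are 4, 3 and 3 reads. Pvalb in compound Hoxd-null was 31.8-fold lower than in WT, with a 95% exact interval of 10.7 to 156 that covers counting error only. The fast genes Tnnc2 (calcium-binding troponin), Casq1 (calsequestrin of the reticulum) and Myoz1 (a Z disc protein) did not follow. Casq1 was highest in WT at 1.39, had -0.50 and -0.39 in the Hoxa-null pair and 0.71 and 0.39 in the Hoxd-null pair, and was lowest in the epididymis at -3.53. Tnnc2 stayed between -0.26 and 0.74 in the 5 vasa with -2.42 in the epididymis, and Myoz1 stayed between -0.28 and 0.55 in all 6 libraries.

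The slow fibre genes gave another picture, with none of the 5 higher than WT by 2-fold in any mutant or in the epididymis. Myh7, the slow myosin heavy chain (chromosome 14, start 55589525 in mm9), had 61.2 normalised reads in WT vas deferens, 2.99 and 7.07 in the Hoxa-null pair, 1.94 in compound Hoxd-null and 7.41 in the epididymis, and was at the floor in Hoxd-null. Tnnc1, the slow and cardiac calcium-binding troponin, had 52.1 in WT against 3.24, 1.77, 6.85 and 3.88 in Hoxa-null, compound Hoxa-null, Hoxd-null and compound Hoxd-null and 5.40 in the epididymis. Tnni1, the slow inhibitory troponin, had 55.3 in WT against 13.8, 9.68, 15.3 and 14.2 in the same order and 4.05 in the epididymis. WT vas deferens was therefore the high library for these 3 slow genes, and all 4 mutants lay below it, whichever cluster was mutated. The 3 genes reached 20 normalised reads only in WT vas deferens, so they count as measured only where they are high. That WT is their high library is thus partly set by the filter. Myh7 was at least 20.8-fold lower than WT in Hoxd-null, against a floor of 3 reads, and 20.4-fold lower in Hoxa-null (95% exact interval 7.34 to 110). Tnnc1 was 29.5-fold lower in compound Hoxa-null (7.87 to 248) and 13.4-fold lower in compound Hoxd-null (4.42 to 66.7). Myh7 has a close neighbour and near copy in the cardiac chain Myh6, so reads may be divided between these as well.

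The remaining slow genes moved less. Mybpc1, the slow myosin binding protein, had 0.81 in WT, -0.49 and -0.67 in the Hoxa-null pair, 1.17 and 0.49 in the Hoxd-null pair and -1.65 in the epididymis, so its Hoxa-null pair lay below its Hoxd-null pair. Tnnt1, the slow tropomyosin-binding troponin, had 0.58 in WT, -0.03 and 0.03 in the Hoxa-null pair, -0.99 and 0.71 in the Hoxd-null pair and -0.63 in the epididymis, and the 2 Hoxd-null libraries thus fell on both sides of the Hoxa-null pair. WT vas deferens was the highest of the 6 male libraries for 6 of 43 members, among them 3 of the 5 slow fibre genes, against 15.5% of all measured genes. The other members highest in WT were Acta1, Tnnc2 and Casq1. Myh7, Tnnc1 and Tnni1, the 3 slow genes of this count, are measured only through WT vas deferens.

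The medians of the fast and slow fibre genes lay apart in the Hoxa-null vasa. In Hoxa-null against WT the median difference was 1.52 log2 units for 14 fast and -2.02 for 5 slow genes, 3.54 apart, and in compound Hoxa-null it was 1.43 and -2.53, 3.96 apart. In Hoxd-null both lists were lower, with medians of -3.81 (fast) and -1.85 (slow), and in compound Hoxd-null with -2.79 and -1.96. In the epididymis they were -2.80 and -3.06. The size of the gap between fast and slow genes in the Hoxd-null libraries changed with the way it was computed: in Hoxd-null it was -1.95 between medians and -0.74 between means. WT vas deferens, which is the reference in all of these, is itself the library with high slow genes, so the contrasts share that library. It also decided which slow genes entered, since Myh7, Tnnc1 and Tnni1 count as measured only through WT. The slow medians thus partly repeat that filter. The remaining slow genes, Mybpc1 and Tnnt1, differed by -1.31 and -0.63 in Hoxa-null and by -1.49 and -0.56 in compound Hoxa-null.

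**Figure D2:**
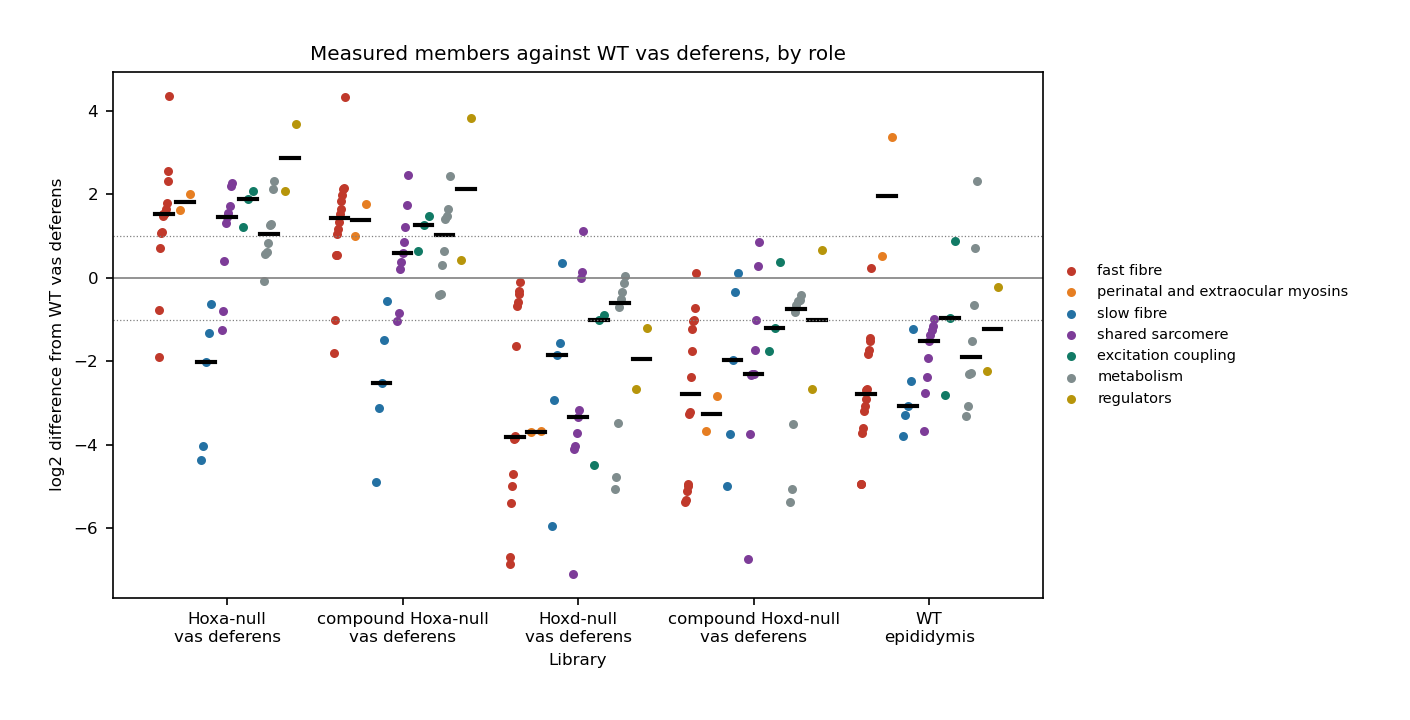
Log2 difference of each measured member from WT vas deferens in the other 5 male libraries, 1 dot per gene, coloured by role, with a bar at the median of each role and dotted lines at 2-fold. Fast fibre dots lie mostly above 1 in the 2 Hoxa-null libraries and below -1 in the 2 Hoxd-null libraries and the epididymis, while no slow fibre dot lies above 1 in any library.

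Sarcomere genes used by all fibre types fell into a group that followed the fast genes and a group that did not. Xirp2, an actin-binding repeat protein of striated muscle (chromosome 2, start 67284059 in mm9), had 137 normalised reads in WT vas deferens, 452 and 459.9 in the Hoxa-null pair, 1.29 in compound Hoxd-null, which is 1 read, and 10.8 in the epididymis, and was at the floor in Hoxd-null. Xirp2 was at least 46.6-fold lower than WT in Hoxd-null, and 106-fold lower in compound Hoxd-null with an interval of 18.8 to 4200. Ttn, the giant elastic protein titin, had 90.2 in WT, 440.3 and 501 in the Hoxa-null pair, 6.85 and 18.1 in the Hoxd-null pair and 31.9 in the epididymis. For Ttn and Xirp2 the Hoxa-null pair, WT and the Hoxd-null pair did not overlap. Myot, the Z disc protein myotilin, had 31.7 in WT, 147 and 75.2 in the Hoxa-null pair, 1.96 and 6.46 in the Hoxd-null pair and 16.2 in the epididymis. Tcap, the titin cap, had 96.1 in WT, 241 and 178 in the Hoxa-null pair, 10.8 and 19.4 in the Hoxd-null pair and 43.5 in the epididymis. Both Z disc genes thus kept the order, with compound Hoxd-null above Hoxd-null. Lmod2, an actin filament nucleator of the thin filament, had 17.3 in WT, 47.9 and 20.3 in the Hoxa-null pair and 1.29 in compound Hoxd-null and 6.75 in the epididymis, and was at the floor in Hoxd-null, so compound Hoxa-null was hardly above WT. Actn2, the alpha-actinin of all fibres, had log2 values of 0.62 in WT, 2.19 and 1.02 in the Hoxa-null pair and -2.71 and -1.11 in the Hoxd-null pair.

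Acta1, Neb and Ldb3, all central parts of the sarcomere, did not follow. Acta1, the skeletal alpha-actin of the thin filament, had 0.89 in WT, 0.11 and -0.12 in the Hoxa-null pair, 0.89 and -0.11 in the Hoxd-null pair and -1.03 in the epididymis. Neb, the thin filament ruler nebulin, had -0.51 in WT, -0.09 and 0.09 in the Hoxa-null pair and 0.62 and 0.35 in the Hoxd-null pair, and was lowest in the epididymis at -2.87. Ldb3, a Z disc adaptor, had 0.42 in WT, -0.80 and -0.42 in the Hoxa-null pair, 0.57 and 0.71 in the Hoxd-null pair and -2.34 in the epididymis. The 5 vasa differed by at most 1.51 log2 units for Ldb3, against 9.31 for Myh4.

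Excitation coupling genes, which link the membrane potential to calcium release, were higher than WT in the Hoxa-null pair. Cacna1s, the voltage sensor of the transverse tubule, had 65.5 normalised reads in WT, 154 and 103 in the Hoxa-null pair, 2.94 in Hoxd-null, which is 3 reads, 19.4 in compound Hoxd-null and 9.45 in the epididymis. Ryr1, the calcium release channel, had log2 values of 0.45 in WT, 2.54 and 1.72 in the Hoxa-null pair, -0.45 and -0.75 in the Hoxd-null pair and -0.51 in the epididymis. Cacng1, a subunit of the voltage sensor, had 26.1 in WT, 97.4 and 72.6 in the Hoxa-null pair, 12.9 and 34.3 in the Hoxd-null pair and 48.6 in the epididymis. In compound Hoxd-null and in the epididymis the 3 genes disagreed, since both libraries lay below WT for Cacna1s and Ryr1 and above it for Cacng1. For Cacng1 the epididymis was 1.87-fold above WT (95% exact interval 1.15 to 3.04) and compound Hoxd-null 1.32-fold (0.784 to 2.26).

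The metabolic genes were split in the same manner as the sarcomere genes. Ampd1, the AMP deaminase of muscle, had 33.1 normalised reads in WT, 82.0 and 88.4 in the Hoxa-null pair and 6.75 in the epididymis, and was at the floor in both Hoxd-null vasa, at least 11.3-fold and 8.54-fold lower than WT. Ckmt2, the mitochondrial creatine kinase of striated muscle, had 11.3 in WT, 57.1 and 35.4 in the Hoxa-null pair and 1.35 in the epididymis, and was at the floor in both Hoxd-null vasa. Eef1a2, the elongation factor isoform of muscle and nerve, had 53.3 in WT, 235 and 151 in the Hoxa-null pair, 1.96 and 1.29 in the Hoxd-null pair and 5.40 in the epididymis. For these 3 genes the Hoxa-null pair, WT and the Hoxd-null pair did not overlap, and no Hoxd-null library held more than 2 reads. Pgam2, the muscle phosphoglycerate mutase, had -0.64 in WT, 0.64 and 1.82 in the Hoxa-null pair and -1.33 and -1.18 in the Hoxd-null pair but 1.70 in the epididymis. Ckm, the cytosolic creatine kinase of muscle, stayed between -0.44 and 0.26 in the 5 vasa, Mb, myoglobin, between -0.63 and 0.79, Pygm, the glycogen phosphorylase of muscle, between -0.25 and 0.80, and Eno3, the muscle enolase, between -0.45 and 0.90. Ckm and Mb are abundant proteins of skeletal muscle, and neither differed from WT by 2-fold in any mutant vas deferens.

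Among the regulators, Mstn, the secreted inhibitor of muscle growth myostatin, had 6.34 normalised reads in WT, 82.0 in Hoxa-null, 91.1 in compound Hoxa-null and 1.35 in the epididymis and was at the floor in both Hoxd-null vasa, at least 2.16-fold and 1.63-fold lower than WT. The 2 Hoxa-null vasa were 3.68 and 3.83 log2 units above WT, the widest difference above WT among the measured members after that of Myh4. Mstn reached 20 normalised reads only in these 2 libraries, so it counts as measured only where it is high. The myogenic factors were scarce: Myf6 had 3 reads in WT, 15 in Hoxa-null and 9 in compound Hoxa-null and was at the floor in the 3 other male libraries, and Myod1 had 2 reads in Hoxa-null and 4 in compound Hoxa-null and was at the floor in the other 4. Neither was counted as measured. Trim63, a ubiquitin ligase of muscle wasting, had 20.4 normalised reads in WT, 86.6 and 27.8 in the Hoxa-null pair, 8.80 and 32.3 in the Hoxd-null pair and 17.7 in the epididymis. For Trim63 the 2 libraries of each cluster disagreed.

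Counted against WT, 28 of 43 members lay at least 2-fold above and 6 at least 2-fold below it in Hoxa-null vas deferens, where 10.7% and 8.41% of all measured genes were. In compound Hoxa-null the counts were 22 and 7, against 13.9% and 8.37%. In Hoxd-null 1 was higher and 28 lower, against 3.31% and 4.81%, and in compound Hoxd-null 0 and 30, against 7.58% and 5.17%, where Mstn is among the 30 although its bound is under 2-fold. In the epididymis 2 were higher and 33 lower, against 16.1% and 12.7%. The median difference of the 43 members was 1.46, 1.01, -2.93, -1.96 and -2.24 in the same order, where the medians over all measured genes lay within 0.01 of 0. With members at the floor placed at their bound, the medians in Hoxd-null and compound Hoxd-null were -1.94 and -1.73. The spread among members was wide, from -4.36 to 4.36 in Hoxa-null (quartiles 0.49 and 1.95), from -4.89 to 4.34 in compound Hoxa-null (-0.08 and 1.65), from -7.09 to 1.13 in Hoxd-null (-4.07 and -0.55), from -6.73 to 0.86 in compound Hoxd-null (-3.71 and -0.69) and from -4.94 to 3.37 in the epididymis (-3.06 and -1.19). The 5 contrasts share the WT vas deferens library.

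The separation did not rest on WT as the reference. Both Hoxa-null vasa were at least 2-fold above the other 3 vasa for 22 members (4.06% of all measured genes), both Hoxd-null vasa at least 2-fold below the other 3 for 22 (0.612%), and no member was separated in the opposite direction for either cluster. Mstn and Ckmt2 are among both 22s and Lmod2 is among the lower 22, and these genes count as measured only through the Hoxa-null pair. The bound of Mstn in compound Hoxd-null, 1.63-fold below WT, is under 2-fold. Within lane 2, Hoxa-null minus Hoxd-null vas deferens had a median of 4.20 over the members, with 30 at least 2-fold higher and 4 lower, where 11.1% and 7.90% of all measured genes were. For compound Hoxa-null minus Hoxd-null the median was 3.62 with the same counts, against 13.5% and 6.74%. With the 7 members at the floor in Hoxd-null placed at their bound the medians were 3.76 and 3.14, and 29 and 30 members were higher. The WT library, of another lane, is not part of these. The difference between Hoxa-null and Hoxd-null and that between compound Hoxa-null and compound Hoxd-null use 4 separate libraries, and 28 members were at least 2-fold higher in both (6.46% of all), 3 lower in both (Tnnc1, Mybpc1 and Ldb3, 3.87% of all) and 8 within 2-fold in both, with none in opposite directions. Mstn, Ckmt2 and Lmod2 are among the 28. The 2 mutants of 1 cluster differed less from each other, with a median of -0.24 (quartiles -0.59 and 0.09) for compound Hoxa-null minus Hoxa-null. For compound Hoxd-null minus Hoxd-null the median was 0 and the third quartile 0.91. The latter pair spans 2 runs, and in compound Hoxd-null 10 members exceeded Hoxd-null by 2-fold or more and 1 lay below it by as much, against 7.83% and 3.83% of all measured genes. Among the 10 were Cacna1s by 2.72, Trim63 by 1.87, Myot by 1.72, Tnnt1 by 1.69, Actn2 by 1.60 and Myh1 by 1.48 log2 units.

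**Figure D3:**
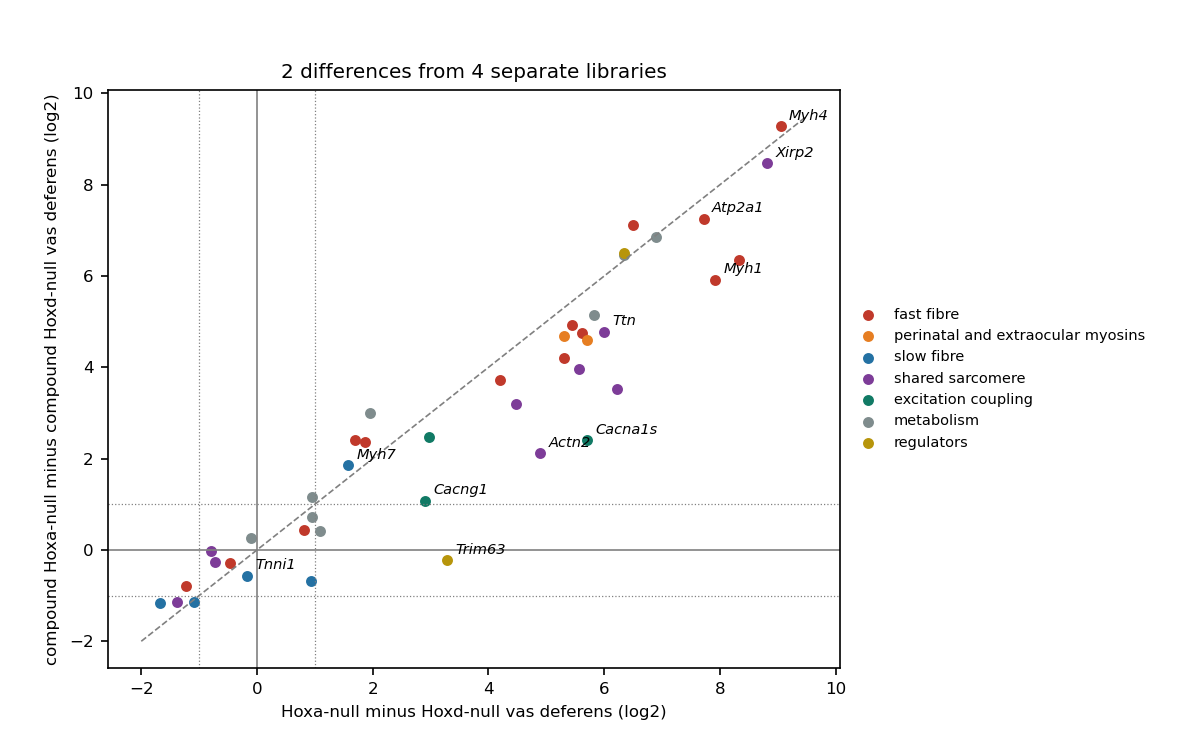
Log2 difference between Hoxa-null and Hoxd-null vas deferens (horizontal) against that between compound Hoxa-null and compound Hoxd-null vas deferens (vertical) for the 43 measured members, 1 dot per gene coloured by role, with dotted lines at 2-fold and a dashed line of equality. The dots run from slow and unresponsive members near 0 to Myh4 at 9.05 and 9.28, and Trim63 stands off the line. Members at the floor in a Hoxd-null library are drawn with the floor as their value.

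Other genes and cell types in the same libraries were read beside the members. Of 39 measured further skeletal muscle genes, 19 lay at least 2-fold above WT and 4 below it in Hoxa-null, 16 and 6 in compound Hoxa-null, 1 and 15 in Hoxd-null, 5 and 11 in compound Hoxd-null and 5 and 21 in the epididymis, with medians of 0.97, 0.84, -0.65, -0.43 and -1.07. Cox6a2, a muscle subunit of cytochrome oxidase, was 1.55 above WT in Hoxa-null, at the floor and at least 6.36-fold lower in Hoxd-null, and differed by -2.86 in compound Hoxd-null. Myom2, an M band protein, was 3.08 and 3.75 above WT in the Hoxa-null pair and also 3.73 above it in the epididymis, and differed from WT by -2.90 in Hoxd-null but only -0.19 in compound Hoxd-null. Ucp3, a mitochondrial carrier, was higher than WT in all 4 mutants, by 4.27, 4.60, 2.06 and 4.68 (Hoxa-null, compound Hoxa-null, Hoxd-null, compound Hoxd-null). Fbp2, the muscle fructose bisphosphatase, differed from WT by -0.13, -1.89, -1.68 and -2.09 in that order and was at the floor in the epididymis, at least 5.41-fold lower.

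Cardiac and slow muscle genes resembled the slow members. Of 10 measured, 0 were 2-fold higher and 6 or 7 lower in each mutant except for 1 that was higher in Hoxd-null, with medians of -1.47, -1.61, -1.24 and -1.45. Myl2, the slow and cardiac regulatory light chain, had 41.6 normalised reads in WT vas deferens and was at the floor in the 5 other male libraries, at least 10.3-fold lower in each. Csrp3, a Z disc protein of heart and slow fibres, had 54.9 in WT and differed by -2.59 in Hoxa-null and -1.90 in the epididymis. It was at the floor in compound Hoxa-null, Hoxd-null and compound Hoxd-null, at least 20.7-fold, 18.7-fold and 14.2-fold lower. WT vas deferens was the high library for both. Myl2 and Csrp3 count as measured only through WT vas deferens, so that WT is their high library is partly set by the filter. The lower counts and the medians of this list include both genes. The likeness of the list to the slow members thus partly repeats that filter.

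Satellite cells are the stem cells of skeletal muscle, and their defining genes were scarce in the male set. Pax7, Pax3 and Myog had the same value in all 6 male libraries, and Myf5, Cdh15, Tmem8c and Calcr reached at most 1.77, 2.65, 2.59 and 2.70 normalised reads. At the neuromuscular junction, the acetylcholine receptor subunits Chrnd and Chrne and the anchor Colq stayed under 20 normalised reads, and the 7 measured genes had medians between -0.21 and 0.34 in the 5 contrasts. The fetal subunit Chrng was at the floor in all 5 vasa and reached 52.7 normalised reads in the epididymis, at least 24.9-fold higher than in WT vas deferens. Smooth muscle genes, which make up the wall of the vas deferens, were lower in the Hoxa-null pair: 9 and 10 of 15 were at least 2-fold lower than WT, with medians of -1.06 and -1.16, against 0 and 2 of 15 in Hoxd-null and compound Hoxd-null, with medians of 0.20 and -0.39. Actg2, the enteric smooth muscle actin, differed by -1.45 and -1.83 in the Hoxa-null pair and 0.21 and -0.95 in the Hoxd-null pair. In the epididymis 14 of 15 were lower, with a median of -1.70. The smooth muscle genes thus moved against the fast muscle members in the Hoxa-null vasa.

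Adipocyte genes moved with the members in the Hoxa-null pair and against them in compound Hoxd-null. Of 10 measured, 8, 9, 1 and 9 exceeded WT by 2-fold or more in Hoxa-null, compound Hoxa-null, Hoxd-null and compound Hoxd-null, with medians of 2.13, 2.53, 0.06 and 2.23. Plin1, which coats the lipid droplet, was higher by 2.36, 2.98, 0.36 and 2.97. Schwann cell genes were lower in the Hoxa-null pair, with medians of -1.27 and -1.09, and 6 and 5 of 9 were at least 2-fold lower. Squamous epithelium genes had medians between -0.25 and 0.70 in the mutants. Whether the skeletal muscle RNA came from striated muscle collected with the duct, and what part fat and smooth muscle content had in the differences, was not tested.

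**Figure D4:**
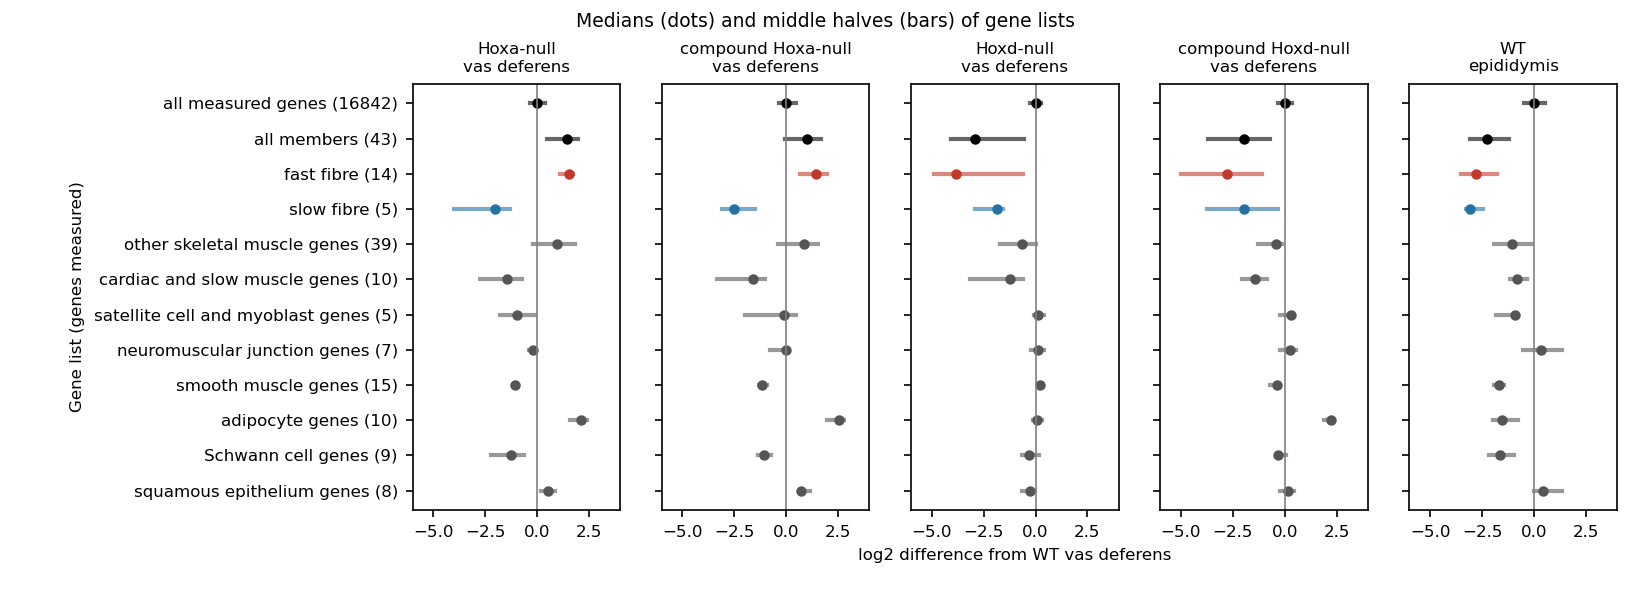
Median (dot) and quartile range (bar) of the log2 difference from WT vas deferens for gene lists in the other 5 male libraries, with the number of genes measured in brackets. Fast fibre genes lie right of 0 in the 2 Hoxa-null panels and left of 0 in the others, slow fibre genes lie left of 0 in every panel, and adipocyte genes lie right of 0 in 3 of the mutant panels.

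The genes nearest to the median profile of the members in the male set, by root mean square log2 distance over the 6 libraries, were Kbtbd10 at 0.33, Itgb1bp2 at 0.36, Expi at 0.41, Krt17 at 0.50, Svs3a and Art1 at 0.57 and Pbk and Atp12a at 0.60. Kbtbd10, a kelch protein of the myofibril, had 0.53 in WT, 1.89 and 1.32 in the Hoxa-null pair, -1.18 and -1.24 in the Hoxd-null pair and -0.53 in the epididymis. Itgb1bp2, the integrin-binding protein melusin of striated muscle, had 0.90, 1.69, 1.75, -0.89, -0.89 and -1.17 in the same order. Krt17, a keratin of stratified epithelium, and Svs3a, a seminal vesicle secretory protein, came as near as Art1, an ADP-ribosyltransferase of skeletal muscle.

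In the uterus and oviduct fewer members were measured and they did not form one pattern. Of the 45 members, 26 were measured, 19 of them genes whose level could not be read, and the other 19 never reached 20 normalised reads, among them all 3 excitation coupling genes, both perinatal and extraocular myosins, 5 of 14 fast fibre genes and 3 of 4 regulators. Lmod2, Ckmt2 and Myod1 had 1 value throughout the 6 libraries. Xirp2, which reached 459.9 normalised reads in the vas deferens, had 1 read in compound Hoxa-null uterus and was at the floor in the 5 others. Myh4 had at most 5.94 normalised reads and Ttn at most 4.39.

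**Figure D5:**
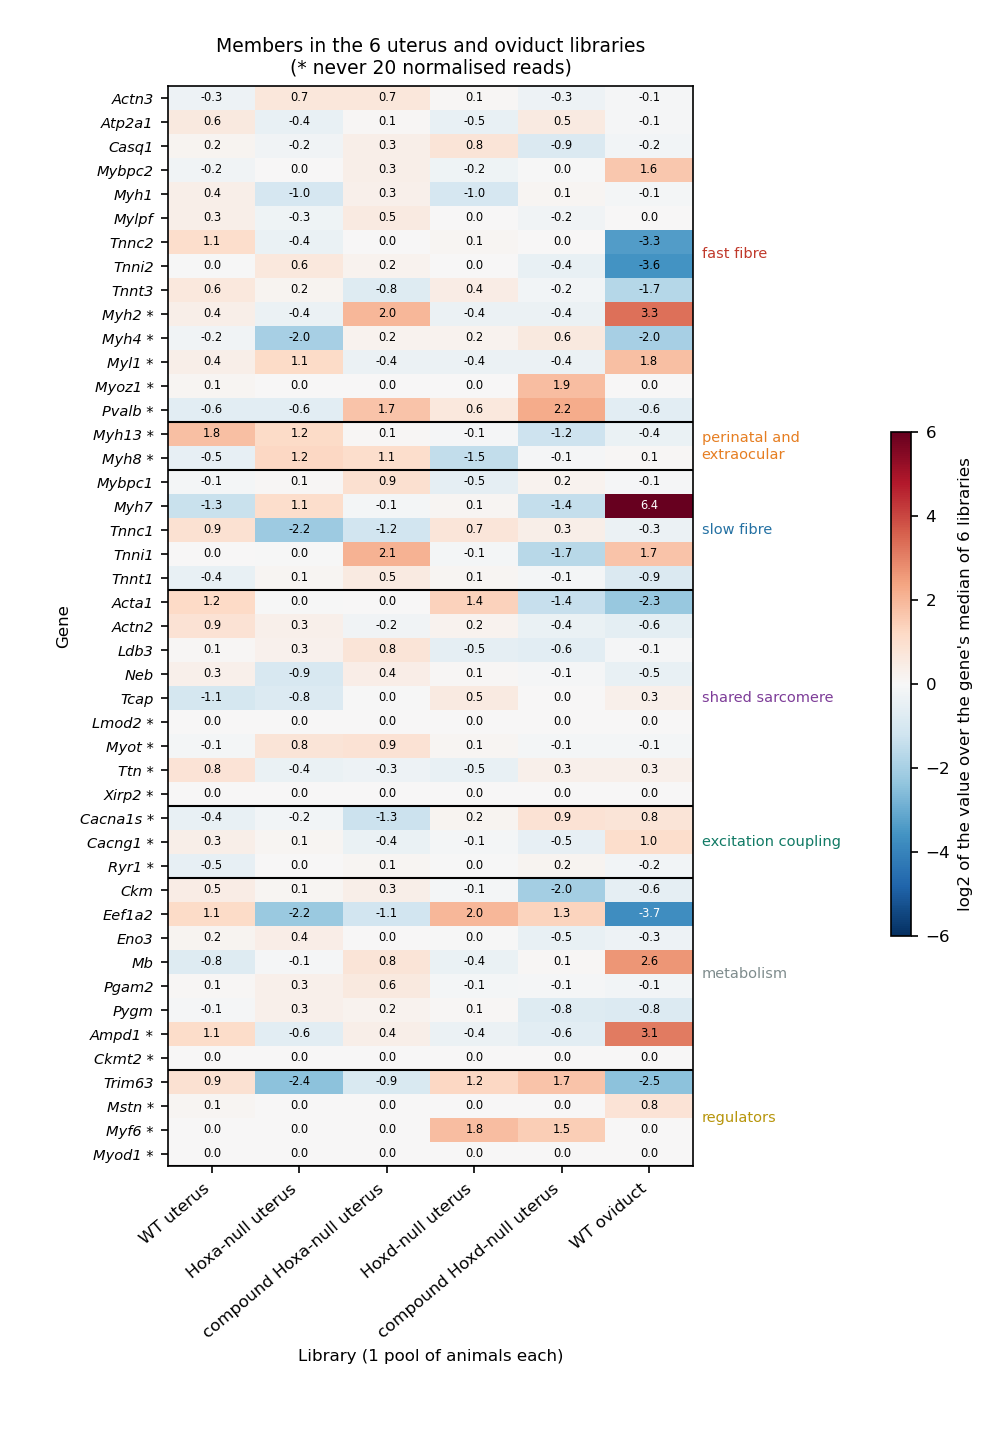
Deposited log2 values of the 45 members in the 6 female libraries, relative to each gene's median, drawn on the same colour scale as the male values. An asterisk marks the 19 members that never reached 20 normalised reads; most cells are pale, with Myh7 in the oviduct at 6.37 as the darkest.

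Against WT uterus, 1 of 26 measured members was at least 2-fold higher and 8 lower in Hoxa-null (5.92% and 7.18% of all 16719 measured female genes), 5 and 7 in compound Hoxa-null (8.51% and 6.75%), 2 and 2 in Hoxd-null (6.17% and 5.74%), and 1 and 6 in compound Hoxd-null (7.88% and 6.30%). In the oviduct 5 were higher and 9 lower (16.4% and 11.6%). The medians were -0.20, 0.18, -0.16, -0.39 and -0.47, against 0 for all measured genes. The shares in Hoxd-null, 2 of 26 in either direction, were near those of all genes. Fast and slow medians differed by -0.68, -0.91, -0.07, -0.27 and -0.53 in the 5 contrasts, with -0.45 for 9 fast and 0.22 for 5 slow genes in Hoxa-null uterus. These contrasts share the WT uterus library. Myh7, the 1 member higher in Hoxa-null, also counts as higher in compound Hoxa-null and Hoxd-null and enters the slow medians. It was measured only through the oviduct, at 227 normalised reads, and had at most 6 reads in any uterus.

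Single members of the female set separated the genotypes. Both Hoxa-null uteri were at least 2-fold below the other 3 for Eef1a2, Trim63 and Tnnc1, 3 of 26 members (1.07% of all), and no member was separated in the other direction or by the Hoxd mutation. Eef1a2 had log2 values of 1.14 in WT uterus, -2.24 in Hoxa-null, -1.14 in compound Hoxa-null, 1.98 in Hoxd-null, 1.34 in compound Hoxd-null and -3.74 in the oviduct. Trim63 had 0.91, -2.44, -0.91, 1.25, 1.72 and -2.47 in the same order. For both, the Hoxa-null uteri lay on the side of the oviduct. Tnnc1 had 21.2 normalised reads in WT uterus, 2.48 in Hoxa-null, 5.01 in compound Hoxa-null, 18.3 in Hoxd-null, 14.1 in compound Hoxd-null and 8.92 in the oviduct. Tnnc1 counts as measured only through WT uterus.

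The oviduct differed for other members. Myh7 had 227 normalised reads in the oviduct against 1.10 in WT, 5.67 in Hoxa-null, 2.50 in compound Hoxa-null and 2.99 in Hoxd-null uterus and the floor in compound Hoxd-null, and its neighbour Myh6 had 120.5 normalised reads in the oviduct, at least 36.6-fold above WT uterus, which was at the floor, so the source of the reads between these 2 chains cannot be told apart. Mb, the oxygen store of oxidative fibres, was 3.43 higher. Tnni2, Acta1, Eef1a2 and Tnnt3 were lower, with differences of -3.56, -3.49, -4.88 and -2.32, and Tnnc2 was at the floor, at least 7.79-fold lower than the 20.8 normalised reads of WT uterus.

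Among the uteri, Tnni1 had 8.77 normalised reads in WT, 8.51 in Hoxa-null, 36.2 in compound Hoxa-null, 8.05 in Hoxd-null and 2.69 in compound Hoxd-null, with 28.2 in the oviduct. Ckm had 98.9 in WT, 77.2 and 91.1 in the Hoxa-null pair, 67.0 in Hoxd-null and 17.4 in compound Hoxd-null, so that 1 library stood low. Acta1 was low in the same library, with 1.20 in WT, -0.02 and 0.02 in the Hoxa-null pair, 1.36 in Hoxd-null and -1.39 in compound Hoxd-null uterus. Tcap was the reverse, lowest in WT at -1.05, with -0.81 and -0.02 in the Hoxa-null pair and 0.52 and 0.02 in the Hoxd-null pair. Ldb3, which reached 386 normalised reads in compound Hoxa-null uterus, ranged from 145 to 267 in the other 5 female libraries.

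Cell type markers moved in the female libraries as well. Adipocyte genes had medians of -1.10, -0.23, -0.64 and -2.98 in Hoxa-null, compound Hoxa-null, Hoxd-null and compound Hoxd-null uterus, and 1.09 in the oviduct. Of 10 measured, 6, 2, 2 and 7 were at least 2-fold lower than WT in the 4 mutants, in that order. Smooth muscle genes had medians of 0.09, 0.74, 0.21, -0.30 and -1.06 in Hoxa-null, compound Hoxa-null, Hoxd-null and compound Hoxd-null uterus and the oviduct. All 10 squamous epithelium genes exceeded WT by 2-fold or more in both Hoxa-null uteri, with medians of 6.61 (Hoxa-null) and 4.20 (compound), and in the compound Hoxd-null uterus, where the median was 2.11. Satellite cell genes Pax7, Myog and Calcr had the same value in all 6 libraries. Of 31 measured further skeletal muscle genes, 2, 4, 1 and 3 lay 2-fold or more above WT and 6, 5, 3 and 3 below it in the 4 mutants, in the order above. The part of cell content in the differences between uteri was not tested. The genes nearest to the median female profile, Snx1, Clk1, Eif4a2, Zbtb8a, Zc4h2, Rtkn2, Dnaja1 and Lrfn3, lay within 0.08 of it, since that profile is nearly flat, with values between -0.25 and 0.26.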

How the data were processed

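Per the labels, RNA from fresh tissue was purified on Qiagen RNeasy columns and made into Illumina TruSeq libraries. TopHat and the build mm9 are named in the submitters' processing notes. How reads were counted and normalised is not given in the sources used here. The authors deposited log2 values, 1 file per library, centred so that the median of each gene is 0 within a sex. Raw read counts and library totals are not used here.

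From the spacing of low values the factor per read of each library was recovered. Reads lie on steps of 1/50 of a read for 80.4% of 3441 female and 80.3% of 4351 male values of genes with at least 2 libraries at the floor, and on simulated data of 6000 genes per sex 97.5% of 2153 levels read (female) and 96.6% of 2118 (male) were right. Gene levels under 1 normalised read are set to the floor, and where 1 library is at the floor a fold is given against 3 reads. A gene was measured at 20 normalised reads or more in its highest library, or where its level could not be read, which left 16719 female and 16842 male genes. Shifts between libraries, at most 0.00157 (female) and 0.00680 (male) log2, were removed. Intervals are 95% exact (Clopper-Pearson) on recovered reads and cover counting error only. PCR copies are not independent molecules.

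Groups were taken from the labels. With 1 pooled library per group no test was made. The difference from WT of the same sex, at 2-fold, was the main comparison. Named genes are all 45 members, up to 4 measured genes with the largest difference from WT per other list, and the 8 measured genes per sex nearest to the median profile, predicted transcripts left unnamed. The tissue markers, the mutated genes and the unmeasured cell type markers were named in addition. The members and lists were chosen with earlier results of these data known. Promoter windows and their motifs come from RefSeq on GRCm38.p6, another build than the files', so positions in mm9 and GRCm38.p6 were not combined. Alternatives were unshifted values, no minimum or 50 normalised reads, another reference, members without floor values and means in place of medians. The reference within lane 2 was chosen after seeing the data. Python 3.11.15, numpy 2.4.6, pandas 2.3.3, scipy 1.17.1 and matplotlib 3.10.9 were used.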

Additional observations from a re-analysis of the deposited data

Results flagged for a closer look

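With 1 library per group, opposite directions in the uterus and the vas deferens are described only, and the difference between the tissues was not tested. For 3 members both mutants of 1 cluster differed from WT by at least 2-fold in opposite directions in the 2 organs. They are among the 26 members measured in the female set, Myh7 only through its reads in the oviduct. In the male set Myh7 counts as measured only through WT vas deferens, the reference. The share of all genes that meet the same rule was not counted, so the 3 are examples only. Eef1a2, the elongation factor isoform of muscle and nerve, differed from WT by -3.38 in Hoxa-null and -2.29 in compound Hoxa-null uterus, and by 2.13 and 1.49 in the matching vasa. Myh7, the slow myosin heavy chain, differed by 2.37 (Hoxa-null) and 1.19 (compound Hoxa-null) in the uterus, where it had 6 and 2.50 reads against 1 in WT, and by -4.36 and -3.12 in the vasa. Tcap, the titin cap, differed by 1.56 in Hoxd-null and 1.06 in compound Hoxd-null uterus and by -3.16 and -2.31 in the vasa. The values are log2 differences, and the largest of Myh7 in the uterus, 5.17-fold, has a 95% exact counting interval of 0.628 to 238.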

How the results depend on the processing

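The unshifted values and the minimum of 50 normalised reads left all medians within 1.5-fold and all counts within 1.5 times of those reported; genes whose level could not be read pass any minimum. No result reversed. With no minimum level, the members at least 2-fold higher numbered 2 in Hoxa-null, 9 in compound Hoxa-null, 4 in Hoxd-null and 5 in compound Hoxd-null uterus and 9 in the oviduct, and 6 were lower in Hoxd-null uterus. With only members that have no library at the floor, 0 were higher in Hoxa-null and 1 in Hoxd-null uterus and 1 in the epididymis, and the median in Hoxd-null vas deferens was -1.61. With the mean of the other libraries of the tissue as reference, 4 members were lower in Hoxa-null and 4 in compound Hoxa-null uterus and 0 in Hoxd-null uterus, while 3, 4 and 2 were higher in compound Hoxa-null, Hoxd-null and compound Hoxd-null uterus. With that reference the medians were 2.46 in Hoxa-null and 1.82 in compound Hoxa-null vas deferens, with 3 members lower in each, and -1.25 in the epididymis. The gap between fast and slow genes with that reference was -0.22 in compound Hoxa-null uterus, -3.63 in Hoxd-null and -2.42 in compound Hoxd-null vas deferens and -1.29 in the epididymis. With means over the lists the gap was -2.66 in the oviduct and -0.74 in Hoxd-null vas deferens. Against the Hoxd-null vas deferens of the same lane, the medians were 4.20 in Hoxa-null and 3.62 in compound Hoxa-null, with 4 members lower in the latter. These changes follow from the reference or from which members enter. No paired analysis was possible because there was 1 library per group. The limit throughout is that pools of 3 animals give no spread between animals, and that genes with few reads move in coarse steps.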
